A study of Vitis vinifera with 6 samples.

Results

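The genes described here encode the enzymes of the general phenylpropanoid pathway, the route that stands before the flavonoid and stilbene branches. They are 9 of the 34369 grapevine genes on the array and were listed by their identifiers, as 3 genes for each of 3 enzyme steps. No threshold on measured values was applied, but the genes were chosen with earlier results of these data known. The identifiers stand for phenylalanine ammonia-lyase (PAL; VIT_06s0004g02620, VIT_08s0040g01710 and VIT_13s0019g04460), cinnamate 4-hydroxylase (C4H; VIT_06s0004g08150, VIT_11s0078g00290 and VIT_11s0065g00350) and 4-coumarate:CoA ligase (4CL; VIT_11s0052g01090, VIT_16s0039g02040 and VIT_06s0061g00450). By the numbering of these identifiers, 3 genes lie on chromosome 6, 3 on chromosome 11 and 1 each on chromosomes 8, 13 and 16, so these PAL genes lie apart from the tandem PAL copies of chromosome 16.

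PAL removes ammonia from phenylalanine to give cinnamic acid, and thereby draws carbon out of primary metabolism. C4H hydroxylates cinnamic acid to p-coumaric acid, and 4CL joins p-coumaric acid and related acids to coenzyme A. The CoA ester is shared by chalcone synthase, which opens the flavonoid branch, by stilbene synthase, and by the enzymes that lead to lignin. In plants these enzymes are typically encoded by small families whose members serve different tissues and branches, and PAL in particular is known for its response to wounding, light and pathogens.

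Leaves came from in vitro plantlets of Vitis vinifera cv. Sultana that were vacuum infiltrated with Agrobacterium tumefaciens C58C1 at an age of 5 weeks and sampled 6 days later. Lines labelled 35S:VvWRKY26 carried a construct in which the 35S promoter, which is active in most plant cells, drives the grapevine transcription factor VvWRKY26. The control lines, which the sample labels call wild type, received the same bacterium with the pK7WG2.0 vector holding a non-coding sequence, so that both groups had been infiltrated. Expression was transient, the untransformed leaf cells were part of each sample, and of the 6 plantlets infiltrated per construct the study chose 3 lines by their VvWRKY26 expression. Each line was hybridized to 1 single-colour Agilent array (n = 3 per group), and each gene has 1 probe.

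All levels below are log2 of the deposited processed intensity minus the 75th percentile of the array, which was 1475, 857 and 1436 in 35S:VvWRKY26 replicates 1, 2 and 3 and 1613, 1063 and 799 in control replicates 1, 2 and 3. A level of 0 therefore equals that percentile, and levels of different genes are not set against each other, since probes differ in brightness. Each of the 3 scans held 1 array of either group. Scan 1 held the arrays of replicate 1, scan 2 those of 35S:VvWRKY26 replicate 3 and control replicate 2, and scan 3 those of 35S:VvWRKY26 replicate 2 and control replicate 3. Per the file headers, the arrays of scan 3 were also the only ones on their slide, so scan 3 cannot be told apart from that slide. Arrays of 1 scan deviated from their group means together, so differences within scans are given beside the pooled ones. The probes of the 9 genes were well above background on all 6 arrays and none was flagged as an outlier spot, and the 5 photosystem genes used as leaf markers were well above background on all 6 arrays as well.

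The probe of VvWRKY26 (VIT_08s0040g03070) read 3.40, 3.69 and 3.32 in the 35S:VvWRKY26 lines, against 3.12, 3.25 and 2.57 in the control lines. The groups did not overlap, as was found toward higher values for 2.43% of all genes with values on every array. Since the study chose the lines by their VvWRKY26 expression, this separation is not independent evidence. The log2 fold change was 0.49 with a standard error of 0.34, which is 1.40-fold (limma, unadjusted p = 0.202, adjusted p = 0.999983). The study itself reported over-expression by RT-PCR and qPCR. The differences within scans 1, 2 and 3 were 0.28, 0.07 and 1.12. Whether the probe also reads the transcript of the construct, beside that of the plant's own gene, was not tested.

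Across the 3 steps no gene passed the adjusted threshold. Of the 9 genes, 2 had a higher mean in the 35S:VvWRKY26 lines and 7 a lower one, and 0 of 9 reached an unadjusted p of 0.05 in limma. Over all 34369 genes, 0 passed an adjusted p of 0.05 (0%), and 355 had an unadjusted p under 0.05 (1.03%). The median log2 fold change of the 9 genes was -0.46, beside -0.05 over all genes, whose middle 50% lay between -0.36 and 0.22. By step, the median was -0.56 for PAL, -0.46 for C4H and -0.43 for 4CL. Means were higher in the 35S:VvWRKY26 lines for 1 of 3 PAL genes, 0 of 3 C4H genes and 1 of 3 4CL genes, while 44.6% of all genes had a positive log2 fold change. Control replicate 3 weighed heavily on this count, since without that array 4 of 9 genes had a lower mean and the median of all 9 was 0.01. With normexp background correction 7 of 9 means were again lower, but only 4 lay below the median of all genes, which was then -0.33. Below the median of all genes of the same fit lay 3 of 9 without control replicate 3 and 2 of 9 without 35S:VvWRKY26 replicate 3, against 7 of 9 with all arrays.

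**Figure D1:**
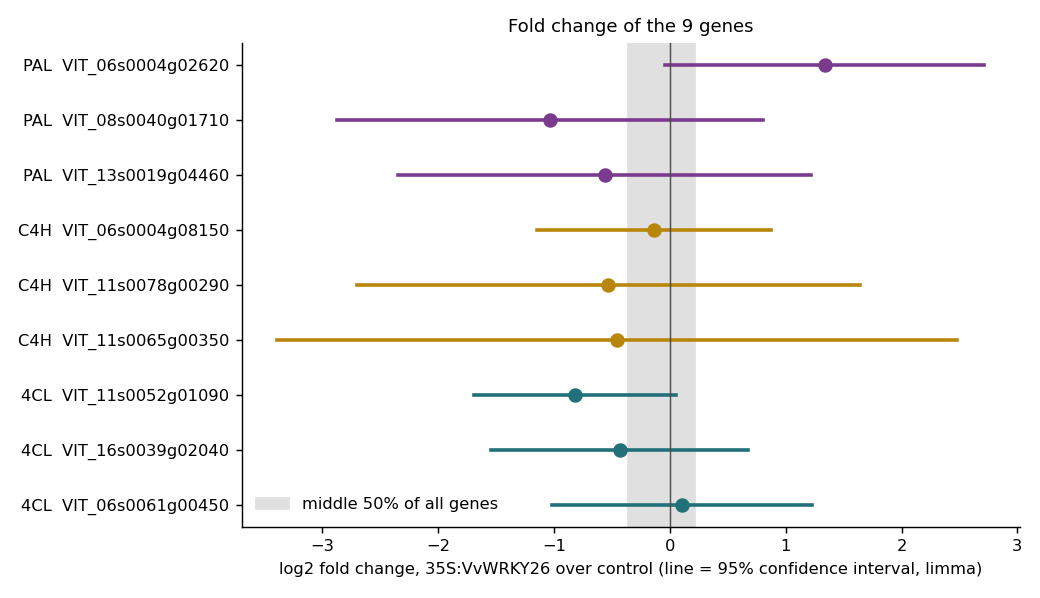
Log2 fold change of the 9 genes, 35S:VvWRKY26 over control, in 1 row per gene ordered by enzyme step. Points are limma estimates from 3 arrays per group, lines are 95% confidence intervals, and the grey band spans the middle 50% of all 34369 genes. All 9 intervals include 0, and VIT_06s0004g02620 and VIT_11s0052g01090 come nearest to excluding it, on opposite sides.

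At the entry step the 3 PAL genes gave opposite readings. VIT_06s0004g02620 read -0.73, -1.54 and -0.78 in 35S:VvWRKY26 replicates 1, 2 and 3, against -1.44, -3.27 and -2.35 in control replicates 1, 2 and 3. The 2 brightest 35S:VvWRKY26 arrays stood above every control array, whereas replicate 2 lay just below control replicate 1, so the groups overlapped by this 1 array. Means were -1.02 ± 0.46 in 35S:VvWRKY26 lines and -2.35 ± 0.91 in control lines (SD, n = 3 each). The log2 fold change of 1.34 (standard error 0.56) equals 2.53-fold with a 95% confidence interval of 0.973 to 6.57, and was higher than that of 99.3% of all genes. In limma its unadjusted p was 0.055 and its adjusted p 0.999983, and the exact two-sided permutation test gave p = 0.2, where 0.1 is the smallest value possible. This gene was among those the study named for a rise on these same arrays, so its direction is not independent evidence.

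Within scans VIT_06s0004g02620 was higher in the 35S:VvWRKY26 line each time, by 0.72 in scan 1, 2.49 in scan 2 and 0.81 in scan 3. It was the only 1 of the 9 genes with that pattern, which 11.6% of all genes showed. With scan as a block in limma the standard error was 0.45 and the unadjusted p 0.030 (adjusted p = 0.876). Under this block 1 of the 9 genes was under 0.05, beside 5.30% of all genes. Leaving out control replicate 2, the dimmest array, lowered the log2 fold change to 0.88, and leaving out control replicate 1 raised it to 1.79.

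VIT_08s0040g01710, also PAL, read 4.47, 5.08 and 3.49 in 35S:VvWRKY26 replicates 1 to 3, against 4.50, 4.87 and 6.77 in control replicates 1 to 3. Control replicate 3 stood apart at the top, while the other 5 arrays were interleaved. The means were 4.34 ± 0.80 in 35S:VvWRKY26 lines and 5.38 ± 1.22 in control lines (SD, n = 3 each), a log2 fold change of -1.04 (standard error 0.75, limma, unadjusted p = 0.216). Without control replicate 3 the log2 fold change was -0.34. Within scans 1, 2 and 3 the difference was -0.03, -1.38 and -1.69.

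VIT_13s0019g04460, the remaining PAL gene, read 1.99, 2.22 and 0.91 in 35S:VvWRKY26 replicates 1 to 3, against 2.42, 0.98 and 3.40 in control replicates 1 to 3. The lowest array of each group belonged to scan 2, and the 35S:VvWRKY26 values fell inside or just below the control range. Its log2 fold change was -0.56 (standard error 0.72, limma, unadjusted p = 0.468). The differences within scans were -0.43, -0.07 and -1.18, and without control replicate 3 the pooled value was 0.01.

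**Figure D2:**
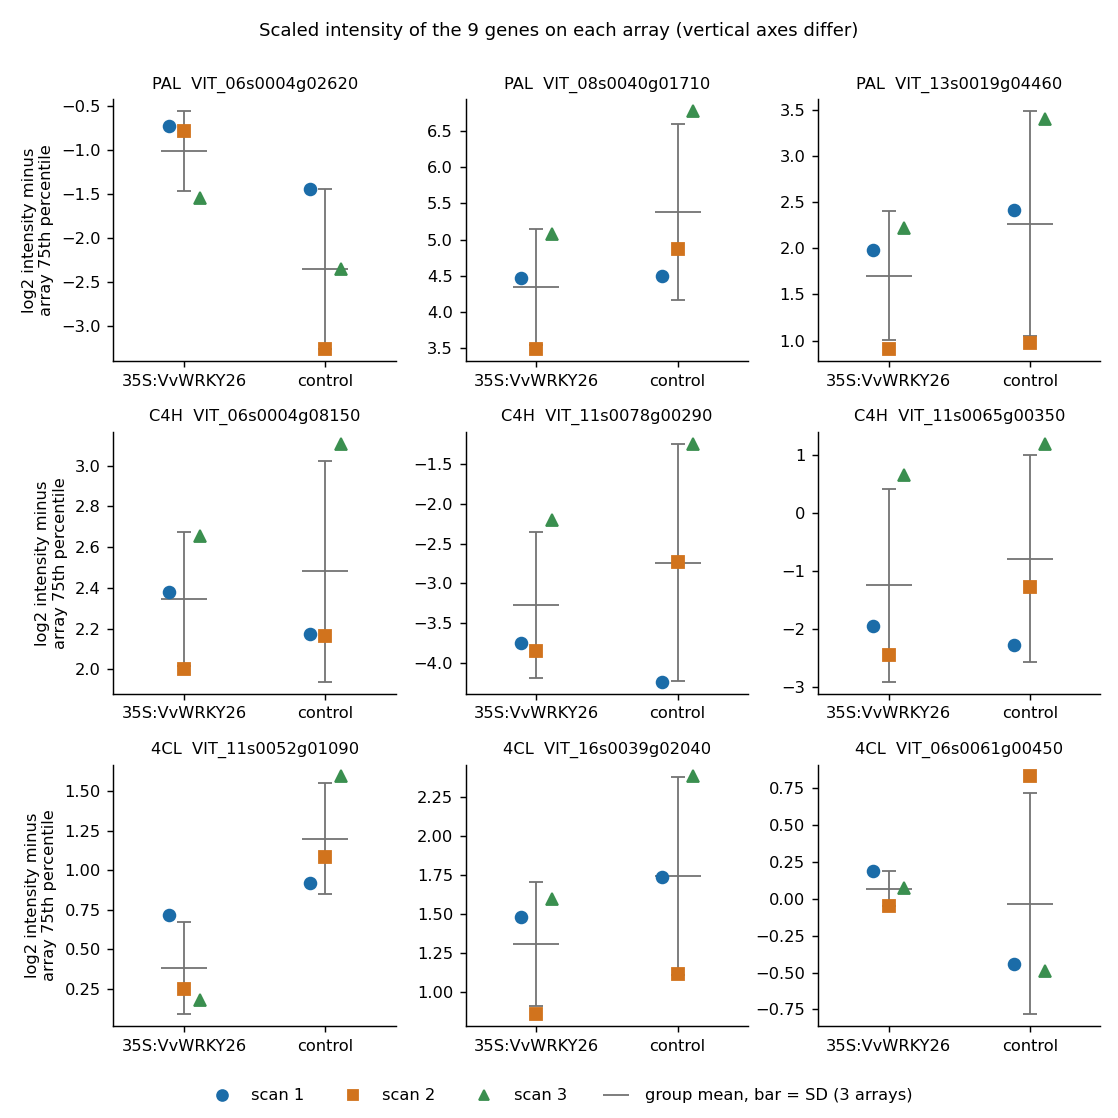
Level of each gene on each array, as log2 intensity minus the 75th percentile of the array, with 35S:VvWRKY26 lines on the left of each panel and control lines on the right. Symbols mark the scan, grey lines give the group mean with its SD over 3 arrays, and each panel has its own vertical axis. Only the panel of VIT_11s0052g01090 has groups that do not overlap, and control replicate 3 (scan 3) is the highest array in 7 of the 9 panels.

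The second step showed no separation of the groups in any of its 3 genes. VIT_06s0004g08150 was the steadiest C4H gene, with 2.38, 2.66 and 2.00 in 35S:VvWRKY26 replicates 1 to 3, against 2.17, 2.16 and 3.11 in control replicates 1 to 3. The log2 fold change was -0.13 (standard error 0.41), with a 95% confidence interval of -1.15 to 0.88, or 0.452-fold to 1.84-fold. The sign turned without control replicate 3 (0.18) and without 35S:VvWRKY26 replicate 3 (0.04).

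The other two C4H genes were among the most variable of the 9. VIT_11s0078g00290 read -3.75, -2.21 and -3.85 in 35S:VvWRKY26 replicates 1 to 3, against -4.24, -2.73 and -1.25 in control replicates 1 to 3. VIT_11s0065g00350 read -1.95, 0.66 and -2.44 in 35S:VvWRKY26 replicates 1 to 3, against -2.27, -1.28 and 1.19 in control replicates 1 to 3. In both genes the array of scan 3 was the highest in either group, and the brightest and dimmest arrays of VIT_11s0065g00350 differed 8.56-fold among the 35S:VvWRKY26 lines and 10.97-fold among the control lines. Log2 fold changes were -0.53 (standard error 0.88) for VIT_11s0078g00290 and -0.46 (standard error 1.19) for VIT_11s0065g00350, so that the spread within groups exceeded the difference between them. Within scans both genes were higher in the 35S:VvWRKY26 line in scan 1, by 0.49 and 0.32, and lower in scans 2 and 3. Without control replicate 3 the log2 fold changes were 0.22 and 0.53.

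At the ligase step VIT_11s0052g01090 was the 1 gene of the 9 whose groups did not overlap. It read 0.71, 0.18 and 0.25 in 35S:VvWRKY26 replicates 1 to 3, against 0.92, 1.09 and 1.59 in control replicates 1 to 3, so each over-expressing line lay below each control line. Such a separation toward lower values was found for 2.26% of all genes with values on all 6 arrays, and toward higher values for 2.43%, beside 1 and 0 of the 9 genes. Means were 0.38 ± 0.29 in 35S:VvWRKY26 lines and 1.20 ± 0.35 in control lines (SD, n = 3 each). The log2 fold change of -0.82 (standard error 0.35) had a 95% confidence interval of -1.69 to 0.05, and 8.42% of all genes had a lower one. The unadjusted p was 0.0608 in limma (adjusted p = 0.999983), and the exact two-sided permutation test gave p = 0.1, the smallest that 3 against 3 arrays allow.

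The difference of VIT_11s0052g01090 was -0.20 in scan 1, -0.84 in scan 2 and -1.42 in scan 3, so its size varied between scans while its sign did not. Of the 9 genes, 4 were lower in the 35S:VvWRKY26 line of every scan, beside 14.3% of all genes. They were the PAL genes VIT_08s0040g01710 and VIT_13s0019g04460 and the 4CL genes VIT_11s0052g01090 and VIT_16s0039g02040. With each array left out in turn the log2 fold change of VIT_11s0052g01090 stayed between -0.99 and -0.62, the narrowest range of the 9 genes.

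VIT_16s0039g02040, also 4CL, read 1.48, 1.60 and 0.86 in 35S:VvWRKY26 replicates 1 to 3, against 1.74, 1.12 and 2.38 in control replicates 1 to 3. Its log2 fold change was -0.43 (standard error 0.45), and the differences within scans were -0.26, -0.26 and -0.79. VIT_06s0061g00450, the third 4CL gene, read 0.19, 0.07 and -0.05 in 35S:VvWRKY26 replicates 1 to 3, against -0.44, 0.83 and -0.49 in control replicates 1 to 3. The 35S:VvWRKY26 values were tightly grouped (SD 0.12) and lay between the control values (SD 0.75). The log2 fold change was 0.10, with a standard error of 0.46. This gene alone of the 9 had its highest reading in control replicate 2, and its differences within scans changed sign, with 0.63, -0.88 and 0.56.

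**Figure D3:**
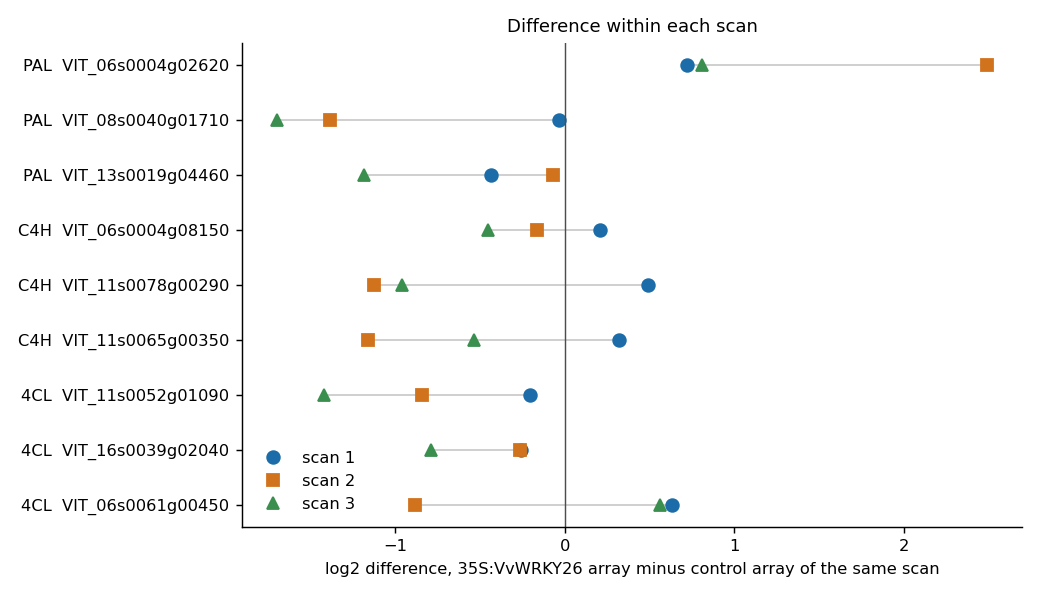
Log2 difference of the 35S:VvWRKY26 array from the control array of the same scan, in 1 row per gene with 1 symbol per scan. VIT_06s0004g02620 lies to the right of 0 in all 3 scans, 4 genes lie to the left in all 3, and the C4H genes and VIT_06s0061g00450 have symbols on both sides.

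The variation among arrays was shared by most of the 9 genes. Control replicate 3 was the highest of the 6 arrays for 7 of them, whereas it was so for 13.6% of all genes, and 35S:VvWRKY26 replicate 3 was the lowest for 5 of them, beside 6.68% of all genes. The 7 genes were the PAL genes VIT_08s0040g01710 and VIT_13s0019g04460, all 3 C4H genes, and the 4CL genes VIT_11s0052g01090 and VIT_16s0039g02040. The shares over all genes include dim probes. Over all genes the median deviation was 0.46 on 35S:VvWRKY26 replicate 3 and 0.40 on control replicate 2, both of scan 2, and negative on every other array. On these arrays 94.9% and 94.7% of probes were well above background, against 73.9% to 77.6% on the others. In control replicate 3 the 9 genes deviated from their own means by a median of 0.86, with VIT_11s0065g00350 reaching 2.20 and VIT_06s0004g02620 at the other end with -0.66. The SD was smaller among the 35S:VvWRKY26 lines than among the control lines for 9 of 9 genes, and for 60.4% of all genes.

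**Figure D4:**
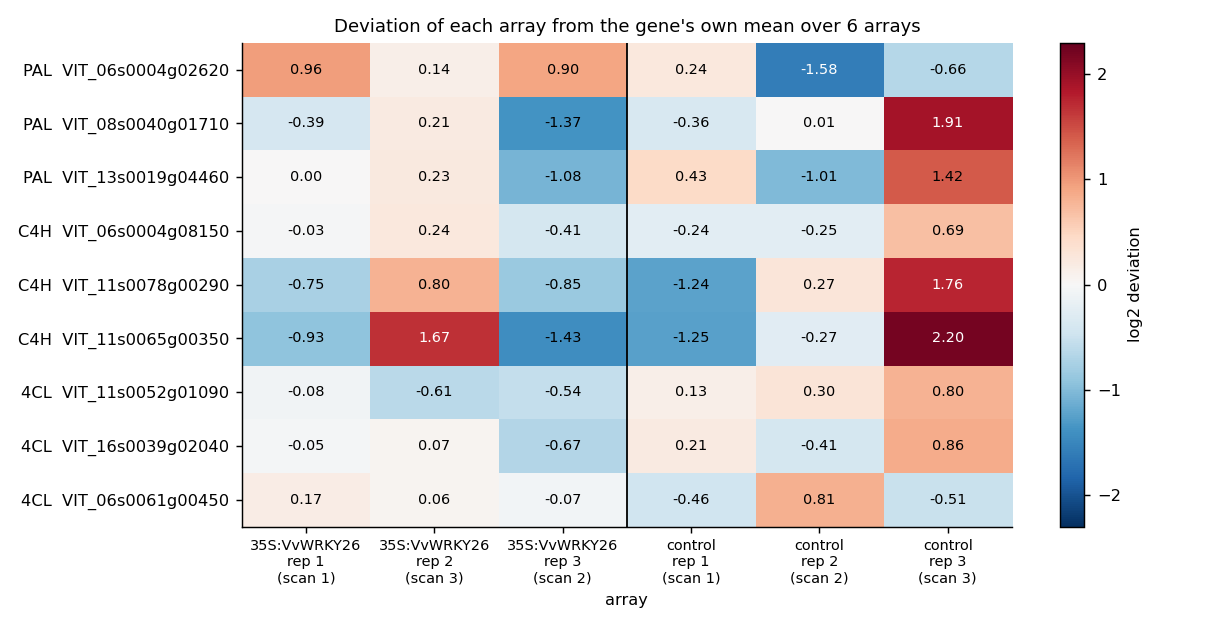
Deviation of each array from the mean of the gene over the 6 arrays, on the log2 scale, with 35S:VvWRKY26 arrays left of the line and control arrays right of it. The column of control replicate 3 holds the highest value of 7 rows, while the top and bottom rows, VIT_06s0004g02620 and VIT_06s0061g00450, are below 0 there.

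Other genes were also brightest on that control array. Of 4 markers of lignifying tissue (2 laccases, a diphenol oxidase and a dirigent protein), 3 were highest in control replicate 3. All 4 also belong to the 11 lignin-side genes given below, of which only 4 were highest on that array. The summed intensity of the 4 markers, as a multiple of the 75th percentile, was 0.719 to 3.31 in the 35S:VvWRKY26 lines. In the control lines it was 0.565 to 16.9, with the value of 16.9 in control replicate 3. On the other 2 control arrays it was 0.565 and 3.46, just outside either end of the range of the 35S:VvWRKY26 lines. None of the 4 markers was at 0, but the dirigent gene VIT_00s0317g00080 was well above background on only 1 of 3 35S:VvWRKY26 arrays and 2 of 3 control arrays. The summed intensity of the 5 leaf markers was 286 to 339 in the 35S:VvWRKY26 lines and 198 to 408 in the control lines, and the value of 198 is that of control replicate 3, where 1 spot (PSBS) was missing as an outlier and the sum rests on the other 4 genes. The part of tissue composition in the levels of the 9 genes was not tested, and in leaf samples a larger share of a cell type cannot be told apart from more RNA per cell.

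Genes that respond to bacteria in plants were followed because both groups had been infiltrated. The summed intensity of the 4 genes was 4.15 to 5.90 in the 35S:VvWRKY26 lines and 2.47 to 3.03 in the control lines, so the sums did not overlap, and none of the 4 was at 0. By gene, 3 log2 fold changes were positive and 1 negative, and only 1 gene had groups that did not overlap. A gene for pathogenesis-related protein 1 (VIT_00s0207g00160) had 1.22, 1.15 and 1.64 in 35S:VvWRKY26 lines, against 0.36, -0.08 and -0.28 in control lines, a log2 fold change of 1.34 (standard error 0.34, limma, unadjusted p = 0.00832, adjusted p = 0.999983). The other pathogenesis-related protein 1 gene (VIT_00s0207g00130) had a log2 fold change of 0.82 (unadjusted p = 0.102), with the lowest 35S:VvWRKY26 array below the highest control array. The class V chitinase genes VIT_00s0540g00020 and VIT_00s0540g00050 had log2 fold changes of 0.83 (unadjusted p = 0.387) and -0.38 (unadjusted p = 0.637), and the highest reading of VIT_00s0540g00020 was that of control replicate 3. PAL is itself known to respond to pathogens, and the part of this response in the reading of VIT_06s0004g02620 was not tested.

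Within each enzyme step the genes could be compared with each other as differences in response, since a constant factor of probe brightness cancels in a log2 fold change. The treatment of background does not cancel. With normexp the log2 fold change of VIT_06s0004g02620 went from 1.34 to 0.97 and that of VIT_08s0040g01710 from -1.04 to -0.68. Differences in response under normexp are not given. Of the 9 pairs of genes within a step, the largest differences lay within PAL. The log2 fold change of VIT_06s0004g02620 exceeded that of VIT_08s0040g01710 by 2.37 (standard error 1.16) and that of VIT_13s0019g04460 by 1.90 (standard error 0.83). The difference from VIT_13s0019g04460 was the only 1 of the 9 with groups that did not overlap (exact two-sided permutation p = 0.1, 0.9 after Benjamini-Hochberg adjustment over the 9 pairs), and it was 1.15, 2.56 and 1.99 within scans 1, 2 and 3. The difference from VIT_08s0040g01710 had an exact permutation p of 0.2 (adjusted 0.9) and was 0.75, 3.87 and 2.50 within scans. With each array left out in turn these differences lay between 1.68 and 3.27 and between 1.33 and 2.42. Both contain VIT_06s0004g02620, which the study named for a rise on these same arrays, so their direction and the separation are not independent evidence. No share of separated groups over other pairs of genes is given.

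In the C4H step the 3 differences in response were 0.40 (standard error 0.73), 0.32 (standard error 1.08) and -0.07 (standard error 0.52), each smaller than its error. Among the 4CL genes, VIT_11s0052g01090 had a log2 fold change lower by 0.92 than VIT_06s0061g00450 (standard error 0.55, exact permutation p = 0.3, adjusted 0.9), but within scans this difference was -0.84, 0.04 and -1.98. The other 2 differences among the 4CL genes were -0.39 (standard error 0.36) and -0.54 (standard error 0.79).

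Over the 6 arrays, 2 of the 9 genes, VIT_06s0004g02620 and VIT_06s0061g00450, correlated negatively with each of the other 8. Among 23459 other genes well above background on all 6 arrays, the closest by Pearson's r were VIT_10s0071g00770 (0.991), VIT_18s0001g14310 (0.991) and VIT_01s0010g02910 (0.990). The study named both VIT_18s0001g14310 and VIT_06s0004g02620 for a rise on these arrays, so a high coefficient between them follows in part from that choice. VIT_18s0001g14310 encodes flavanone-3-hydroxylase 2, an early enzyme of the flavonoid branch, and read 1.28, 0.66 and 1.41 in 35S:VvWRKY26 lines, against 0.63, -0.81 and -0.29 in control lines. The coefficients of the other 8 genes with VIT_06s0004g02620 ran from -0.04 for VIT_13s0019g04460, at rank 10155, to -0.62 for VIT_11s0052g01090, at rank 20675. Between genes of different steps, coefficients reached -0.73 for VIT_06s0061g00450 (4CL) with VIT_13s0019g04460 (PAL) at the low end, and at the high end 0.986 for VIT_13s0019g04460 (PAL) with VIT_16s0039g02040 (4CL), and 0.924 for VIT_08s0040g01710 (PAL) with VIT_06s0004g08150 (C4H). These coefficients describe 6 arrays that share scans and 2 groups, and no p is attached to them.

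Further along the pathway, 10 genes of the flavonoid and related branches were taken from those that the study named as higher on these arrays. The 10 are not all that it named, and their direction follows from that choice and is not independent evidence. Each of the 10 had a positive log2 fold change, 7 had an unadjusted p under 0.05 (9 with scan as a block) and 0 passed the adjusted threshold, with a median of 1.80. Of the 10, 7 were well above background on all arrays. The lowest log2 fold change was 0.35, for the anthocyanidin reductase gene VIT_00s0361g00020 (standard error 1.17, limma, unadjusted p = 0.776). That gene was well above background on 2 of 3 35S:VvWRKY26 arrays, and its difference within scan 3 was -1.36. A glucosyltransferase gene (GT1, VIT_03s0091g00040) read -0.15, 1.11 and -0.26 in 35S:VvWRKY26 lines, against -2.21, -3.62 and -2.27 in control lines, a log2 fold change of 2.93 (standard error 0.60, limma, adjusted p = 0.999983). The flavonoid 3'-monooxygenase gene VIT_18s0001g11430, whose enzyme adds a hydroxyl group to the flavonoid B ring, read 3.77, 3.86 and 4.02 in 35S:VvWRKY26 lines, against 1.61, 2.62 and 1.77 in control lines (log2 fold change 1.89, standard error 0.38).

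The next lists were taken from gene descriptions in the readable part of a supplement of the study. Every flavonoid-side and lignin-side gene so found has an identifier that starts with VIT_00s, so the lists do not represent either branch as a whole. Of 5 flavonoid-side genes, 3 had a positive and 2 a negative log2 fold change, with a median of 0.47 and 0 past an unadjusted p of 0.05. That median was -0.22 without control replicate 1 and -0.70 without 35S:VvWRKY26 replicate 3. The log2 fold change was 0.85 for the anthocyanidin reductase gene VIT_00s0361g00040 (standard error 0.45) and 0.53 for the flavonoid 3-monooxygenase gene VIT_00s0555g00020 (standard error 0.35), and the other 3 were not well above background on all arrays. The median itself is the value of 1 of those 3, VIT_00s0361g00010, which was well above background on 1 of 3 35S:VvWRKY26 arrays and 0 of 3 control arrays. Of 11 lignin-side genes, which include the 4 markers of lignifying tissue above, only 5 were well above background on all 6 arrays. The counts over this list therefore rest in part on dim readings. Of the 11, 8 had a negative and 3 a positive log2 fold change, the median was -0.29 (0.01 without control replicate 2 and -0.97 without control replicate 1), and 0 passed an unadjusted p of 0.05. Among them, laccases couple lignin units at the cell wall, and the laccase gene VIT_00s0444g00010 had a value of -1.41 on the log2 scale (standard error 1.37), while the dirigent gene VIT_00s0317g00080 had -2.04 (standard error 1.30), with 1 of 3 35S:VvWRKY26 arrays and 2 of 3 control arrays well above background. With scan as a block this dirigent gene had an unadjusted p of 0.0113 in limma, as the 1 gene of the 11 under 0.05, and 0 of 11 passed the adjusted threshold.

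The 10 identifiers of the chromosome 16 block of tandem PAL copies had log2 fold changes between -0.87 and -0.39, with a median of -0.76 and 0 past an unadjusted p of 0.05. They shared the course of the dispersed genes in that 9 of 10 were highest in control replicate 3, and without this array their median was -0.21. The 2 with the smallest p were VIT_16s0039g01120, with -0.84 (standard error 0.64), and VIT_16s0039g01100, with -0.66 (standard error 0.56). Whether the probes of these copies share signal was not tested.

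**Figure D5:**
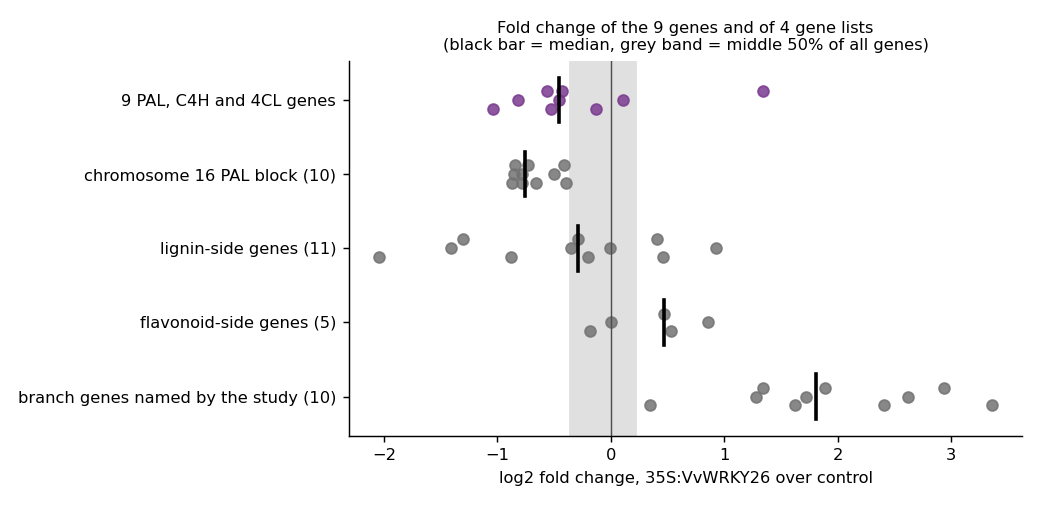
Log2 fold change, 35S:VvWRKY26 over control, of the 9 PAL, C4H and 4CL genes and of the genes of 4 lists, dim probes included, 1 point per gene, with black bars at the medians and a grey band over the middle 50% of all genes. The median of the 9 genes is -0.46 and VIT_06s0004g02620 (1.34) is the 1 of the 9 above 1. The branch genes, at the bottom, were taken from those the study named for a rise, as was VIT_06s0004g02620.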

How the data were processed

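Leaf RNA of 3 35S:VvWRKY26 and 3 control lines of cv. Sultana was measured on 6 arrays. Per the file headers, the authors deposited spot intensities from Feature Extraction 10.5.1.1, background-subtracted (the processed signal), with flags for outliers and spots well above background. The authors' own normalized intensities, in a table of the series, served only as an alternative, because its values for 35S:VvWRKY26 replicate 2 are averages of replicates 1 and 3 in each row.

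The processed signal was scaled by subtracting, on the log2 scale and without a pseudocount, each array's 75th percentile over 34369 gene probes. The 1417 control spots did not enter, and 6 to 139 outlier spots per array counted as missing, with the most on control replicate 3. The software marked 25391 to 32600 probes of an array as well above background and 0 spots as saturated. The groups were compared over all genes in limma 3.58.1 (R 4.3.3, lmFit and eBayes, no covariates, two-sided, Benjamini-Hochberg adjustment, threshold 0.05). The fit was also run on simulated data with less noise than these arrays and no scan effect. That run therefore does not show how the fit performs on these arrays. Single genes and differences between 2 genes were tested by exact permutation in SciPy 1.17.1. Precision is limited by the number of arrays. The p-values of the main fit rest on the spread between arrays within each group, in which line and scan are mixed.

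The headers give control replicates 1 and 2 the same slide and position in different scans, and likewise 35S:VvWRKY26 replicates 1 and 3. Since their correlations across genes were 0.899 and 0.952, among 15 pairs of arrays that reached 0.975, they were kept as separate arrays. Deviations from group means correlated within scans (0.63, 0.69 and 0.54 in scans 1, 2 and 3).

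The 9 genes, the gene lists and the tests were chosen with earlier results of these data known. Named genes were all 9, VvWRKY26, the 2 genes of each list with the smallest unadjusted p where none passed the adjusted threshold, and the 3 genes closest to VIT_06s0004g02620 by Pearson's r. Alternatives were normexp background correction (offset 50), quantile normalization, no scaling, the authors' table, a filter on dim probes, dim spots at the lowest measured signal, all outlier spots, array weights, a trend of variance with intensity, blocks for scan, slide and replicate number, each array left out, and the methods' t-test.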

Additional observations from a re-analysis of the deposited data

How the results depend on the processing

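Of 171 combinations of the 9 genes with 19 alternatives, 162 kept the direction of the log2 fold change, and no gene passed the adjusted threshold in any of them. VIT_06s0004g02620, VIT_08s0040g01710, VIT_11s0052g01090 and VIT_16s0039g02040 kept theirs throughout. The exceptions were VIT_06s0004g08150 without scaling (0.000779) and 8 cases with 1 array left out, of which 4 lacked control replicate 3 in genes with a negative value. With 1 array left out the log2 fold change ran from -1.21 to 0.0055 for VIT_13s0019g04460, from -0.29 to 0.18 for VIT_06s0004g08150, from -1.28 to 0.22 for VIT_11s0078g00290, from -1.41 to 0.53 for VIT_11s0065g00350 and from -0.12 to 0.54 for VIT_06s0061g00450. The differences in response ran from -0.038 to 0.99 and from -0.35 to 1.12 for VIT_06s0004g08150 minus VIT_11s0078g00290 and minus VIT_11s0065g00350, from -0.38 to 0.35 for VIT_11s0078g00290 minus VIT_11s0065g00350, and from -1.29 to 0.0075 for VIT_16s0039g02040 minus VIT_06s0061g00450. The number of genes with a lower mean ran from 4 (without control replicate 3) to 8 (without control replicate 1). That of genes with an unadjusted p under 0.05 ran from 0 to 1 (without control replicate 1). That of genes whose groups did not overlap ran from 1 to 4 (without control replicate 2). Groups with 1 array fewer separate more readily, and no share over all genes is given for these fits, so the count of 4 cannot be weighed.

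The 355 genes with an unadjusted p under 0.05 became 855 with quantile normalization, 145 without scaling, 1272 in the authors' table, 628 with an intensity trend, 797 with array weights, 1822 with the scan block, 537 with the slide block and 787 with the methods' t-test, and 219 (without 35S:VvWRKY26 replicate 1) to 1213 (without control replicate 1) with 1 array left out. Of the 9 genes, 1 was under 0.05 with quantile normalization, in the authors' table, with dim spots at the lowest signal, with the scan block and with the methods' t-test, and 2 were with the filter on dim probes, the intensity trend and array weights. These were VIT_06s0004g02620 and VIT_11s0052g01090. Over all genes, 382 of 34369 were under 0.05 with dim spots at the lowest signal, and 484 of 25642 with the filter on dim probes. Groups did not overlap for 0 of the 9 without scaling and for 3 in the authors' table, where 1 column is an average of the other two. No share over all genes is given beside these counts of 0 and 3. The cause of these shifts was not tested. The replicate numbers do not pair the samples, since deviations of equal numbers correlated at 0.63, -0.28 and -0.41. With the replicate block 246 genes, 1 of the 9 among them, had an unadjusted p under 0.05.

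Normexp moved the median of all genes by -0.28 on the log2 scale, relative to which 4 of the 9 genes were lower, against 7 under the main scaling, and 37.9% of its unadjusted calls were higher, against 52.4%. The shift was 0.13 without scaling and 0.16 in the authors' table, relative to which 7 and 8 of the 9 were lower. With 1 array left out, between 2 (without 35S:VvWRKY26 replicate 3, median of all genes -0.27) and 8 (without 35S:VvWRKY26 replicate 1) were lower than that median.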
